A study of Mus musculus with 12 samples.

Results

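The 4 untreated libraries of this irradiation series were examined by how much Trp53 transcript each held. They are 4 of the 12 RNA-seq libraries, all from mouse embryos at embryonic day 9.5. The 2 pairs were chosen by their Trp53 value: at least 150 TPM in 2 libraries and below 150 TPM in the other 2. TPM is transcript abundance scaled to the same sum in every library. The labels call 2 of the 4 p53 wild type (p53 +/+) and 2 p53 knockout (p53 -/-), and number the libraries of each genotype 1 and 2. Sources used here give neither the knockout allele nor the strain, nor how many embryos went into a library. The other 8 libraries come from embryos of both labels whose mothers received 30 Gy of X-rays at 5 Gy per minute. They were taken at 1 h or 3 h, with 2 libraries for each label and time. The series asks which genes act in cell-cycle arrest that depends on p53, and its title names p21 (Cdkn1a), ccng1, foxo3b and fbxw7.

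Trp53 encodes p53, a transcription factor that is kept low in unstressed cells by the ubiquitin ligase Mdm2. After DNA damage p53 is stabilised and binds response elements, each a pair of decamers, near genes of arrest, death, repair and its own feedback. Some of these targets are also transcribed at a low basal rate in cells without damage, and in many settings part of that basal level needs p53. In the mid-gestation embryo p53 is widely transcribed, and loss of Mdm2 is lethal at earlier stages unless p53 is also removed.

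Trp53 (ENSMUSG00000059552) chose the pairs, so its values are a description. It stood at 265.13 TPM in the knockout-labelled library 1 and at 211.19 TPM in the wild-type-labelled library 2, which form the higher pair and are given in this order below. It stood at 79.13 TPM in the knockout-labelled library 2 and at 113.96 TPM in the wild-type-labelled library 1, which form the lower pair and are also given in this order. The values nearest to the threshold were thus 211.19 TPM above it and 113.96 TPM below it. Each pair holds 1 library of each label and 1 of each number. The libraries labelled knockout therefore include the highest and the lowest Trp53 value of the 4, and the transcript does not follow the label. A genotype was not inferred from these values, and every library keeps its label here. Whether labels were exchanged was not tested, so the direction of each knockout-over-wild-type value below rests on the labels as given.

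**Figure D1:**
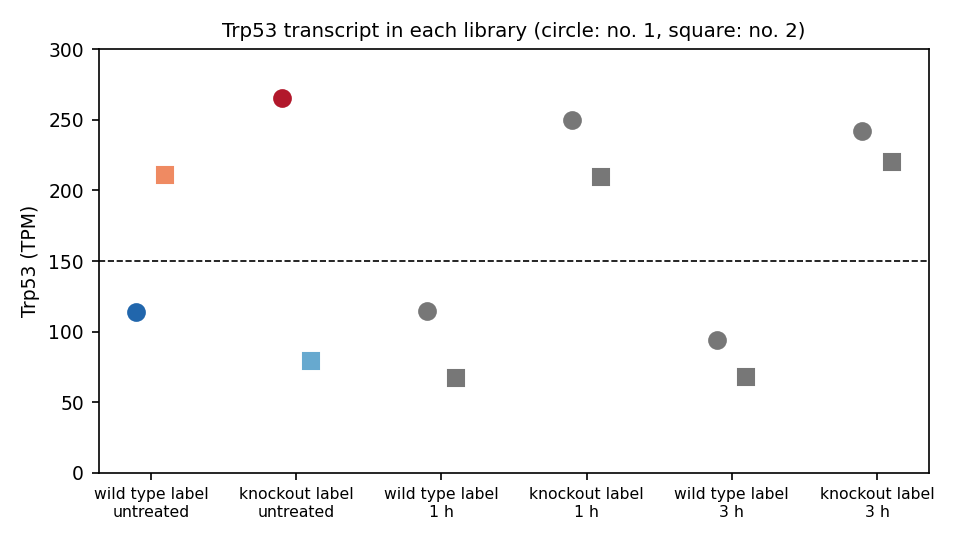
Trp53 transcript (TPM, linear axis from 0) in each of the 12 libraries by label and time; circles are libraries numbered 1, squares libraries numbered 2, and the dashed line is 150 TPM. Red and orange mark the higher untreated pair (265.13 and 211.19 TPM), blue marks the lower pair (79.13 and 113.96 TPM), and grey marks irradiated libraries.

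The irradiated libraries, which did not enter the choice, also fell on both sides of 150 TPM. Under the knockout label, libraries 1 and 2 held 250.12 and 209.52 TPM of Trp53 at 1 h, and 242.23 and 219.83 TPM at 3 h. Under the wild-type label they held 114.31 and 66.81 TPM at 1 h, then 93.73 and 68.03 TPM at 3 h. The 3 h level was higher under the knockout label by 1.52 on the log2 scale (SE 0.299, adjusted p = 0.0369 from limma on the 8 irradiated libraries). That call was lost without any single one of 6 of the 8 libraries, and in a fit to all 12 libraries (adjusted p = 0.118). At 1 h the log2 difference was 1.38 (SE 0.299, limma adjusted p = 1). Trp53 thus went against the genotype label at both times after irradiation, while the untreated libraries split within each label.

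Among the title genes whose untreated libraries did not overlap between the pairs, Ccng1 and Cdkn1a were chosen for display and Fbxw7, with a narrow gap, was not. Promoter sequences of Ccng1, Cdkn1a and Trp53, the gene that formed the pairs, are shown. They are parts of RefSeq promoter windows (250 bases before to 50 bases after a transcript start, build GRCm38.p6, gene strand, 5′ to 3′), cut to the bases around matches to the p53 consensus decamer, in capitals.
Trp53, chr11:69580259-69580318, plus strand: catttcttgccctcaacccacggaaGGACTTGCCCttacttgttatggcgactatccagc
Ccng1, chr11:40755437-40755496, minus strand: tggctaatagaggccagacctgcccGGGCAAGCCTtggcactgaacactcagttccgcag
Cdkn1a, chr17:29090881-29090962, plus strand: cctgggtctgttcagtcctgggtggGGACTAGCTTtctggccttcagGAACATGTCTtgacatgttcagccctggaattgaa
The match begins 75 bases before the start in Trp53 and 185 bases before it in Ccng1. The 2 matches in Cdkn1a begin 73 and 51 bases before the start used for that window, which need not be the gene's main start. These matches in Cdkn1a are not adjacent, and whether they belong to the same response element was not tested. The decamer reads as itself on the opposite strand, so both strands are covered by each search. A match was found in 8.36% of all 32851 windows and in 8.13% of the 10191 genes that were both measured in the untreated libraries and present in the table. Among the p53 target genes described below, 17 of 46 with a window held a match (37%). These matches describe letters in a window and show no binding.

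The untreated libraries were compared gene by gene through the gap between the pairs. The gap is the distance on log2(TPM + 1) between the nearest libraries of the 2 pairs, and it is above 0 only where the pairs do not overlap. Because Trp53 formed the pairs, no test and no p-value is given between them, and no mean is taken over a pair. Of 14204 genes with at least 1 TPM in at least 2 of the 4 libraries, 6.48% were higher in the higher pair without overlap and 8.48% were lower. A gap of at least 1.5-fold was found for 32 genes in the higher direction (0.225%) and for 41 in the lower direction (0.289%), together 0.514%. Of these 73 genes, 47 passed the filter only because 1 pair was at or above 1 TPM, so they had to differ.

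The 3 p53 target lists hold 67 genes, of which 56 passed the filter. Of the 56, 16 were higher without overlap (28.6%, against 6.48% of all genes) and 1 was lower (1.79%, against 8.48%). Some lists unrelated to p53 had shares as large, with 40% of 10 endothelial and of 5 decidua markers and 33.3% of 12 hypoxia and glycolysis genes higher. Without any filter the 67 members gave the same counts of 16 and 1, against 8.18% and 9.19% of all genes. With at least 5 TPM in all 4 libraries, 10 of 38 members were higher, against 5.38% of all genes. The differences were small: the median log2 difference of higher minus lower pair was 0.10 between the libraries numbered 1 and 0.07 between those numbered 2, against -0.03 and -0.01 over all genes. Without 1 library of the 4, where 1 library stands against 2, a gene without overlap cannot begin to overlap. All 16 thus had to stay higher and the count could only grow, and 17 to 38 targets were higher. Without the wild-type-labelled library 2 the counts were 21 higher and 21 lower (25% and 46.2% of all genes), and without the wild-type-labelled library 1 they were 17 and 12 (18.2% and 37%). They were 38 and 5 without the knockout-labelled library 1 (33.4% and 22.6%) and 30 and 2 without the knockout-labelled library 2 (27.3% and 19.3%). By label the same 56 genes showed 6 higher and 3 lower under knockout without overlap, where 8.62% of all genes fell in each direction.

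Ccng1 (ENSMUSG00000020326), cyclin G1, a direct p53 target in feedback on Mdm2, had the widest gap of the title genes. It stood at 18.78 and 29.24 TPM in the higher pair and at 12.35 and 10.09 TPM in the lower pair. Its difference was 1.78-fold between the libraries numbered 1 and 2.27-fold between those numbered 2, with nearest libraries 1.48-fold apart. Both libraries with more Trp53 held more Ccng1, and the label did not divide them. Cdkn1a (ENSMUSG00000023067), which encodes the arrest protein p21, stood at 6.88 and 6.6 TPM against 5.38 and 5.91 TPM. Its pairs did not overlap, yet the nearest libraries were only 1.10-fold apart. Fbxw7 (ENSMUSG00000028086), a substrate receptor of a ubiquitin ligase, stood at 13.95 and 13.12 TPM against 12.92 and 12.09 TPM. That gap of 0.02 on the log2 scale closed with median-of-ratios scaling. Foxo3 (ENSMUSG00000048756), a forkhead transcription factor, stood at 10.97 and 13.52 TPM against 11.89 and 12.31 TPM, and its pairs overlapped.

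Among targets of arrest and feedback, 8 of 22 were higher without overlap (36.4%, against 6.48% of all genes) and 1 was lower (4.55%, against 8.48%). Phlda3, a pleckstrin-homology protein that restrains AKT, stood at 7.05 and 8.54 TPM in the higher pair and at 5.26 and 5.31 TPM in the lower pair. Inka2, an inhibitor of the kinase PAK4, stood at 1.36 and 1.60 TPM against 0.98 and 0.85 TPM, so it passed the filter through the higher pair alone. Sesn2, a sestrin that restrains mTORC1, stood at 10.17 and 12.06 TPM against 9.33 and 8.15 TPM. Each of these genes was higher in both libraries of the pair, but by less than 1.5-fold between nearest libraries. Mdm2, the ligase that degrades p53, stood at 34.94 and 36.14 TPM against 33.06 and 33.66 TPM, a narrow spread over the 4 libraries. Psrc1, a spindle protein gene, stood at 50.46 and 56.19 TPM against 49.47 and 46.28 TPM. Gadd45a, a growth arrest gene, was the single member in the other direction, at 18.32 and 18.96 TPM against 20.92 and 19.33 TPM. The gaps of Mdm2 and Gadd45a closed with median-of-ratios scaling.

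Among targets of cell death, 6 of 14 were higher without overlap (42.9%, against 6.48% of all genes) and none was lower (8.48% of all genes were). Eda2r (ENSMUSG00000034457), a receptor of the TNF receptor family encoded on the X chromosome, was the only p53 target past a gap of 1.5-fold. It stood at 1.83 and 2.81 TPM in the higher pair and at 0.39 and 0.09 TPM in the lower pair, 2.04-fold apart between nearest libraries on the log2(TPM + 1) scale. Its low values mean that it passed the filter through the higher pair alone. Pmaip1, the gene of the BH3-only protein NOXA, stood at 1.88 and 2.10 TPM against 1.23 and 0.76 TPM. Tnfrsf10b, the mouse TRAIL receptor, stood at 5.52 and 5.17 TPM against 4.39 and 4.13 TPM. These 3 genes were higher in both libraries with more Trp53. Bax, a pore-forming protein of mitochondrial outer membranes, was far more abundant and nearly level, at 109.2 and 112.49 TPM against 104.4 and 102.09 TPM. Bbc3, which encodes PUMA, stood at 12.01 and 12.01 TPM against 11.70 and 10.95 TPM, and Aen, an apoptosis-enhancing nuclease gene, at 77.51 and 59.74 TPM against 52.71 and 58.56 TPM. The Aen gap closed with median-of-ratios scaling.

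Among targets of repair, metabolism and secretion, 2 of 20 were higher without overlap (10%, close to the 6.48% of all genes) and none was lower. Cpt1c, a carnitine palmitoyltransferase homologue, stood at 5.47 and 5.37 TPM in the higher pair and at 3.36 and 3.57 TPM in the lower pair. Its values within each pair lay close together, and nearest libraries were 1.39-fold apart. Dcxr, a xylulose reductase, stood at 3.81 and 5.18 TPM against 3.59 and 3.78 TPM, with almost no gap. The repair genes Ercc5 and Polk overlapped, at 18.16 and 15.22 against 15.32 and 15.96 TPM for Ercc5 and at 5.58 and 5.32 against 5.51 and 3.59 TPM for Polk.

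**Figure D2:**
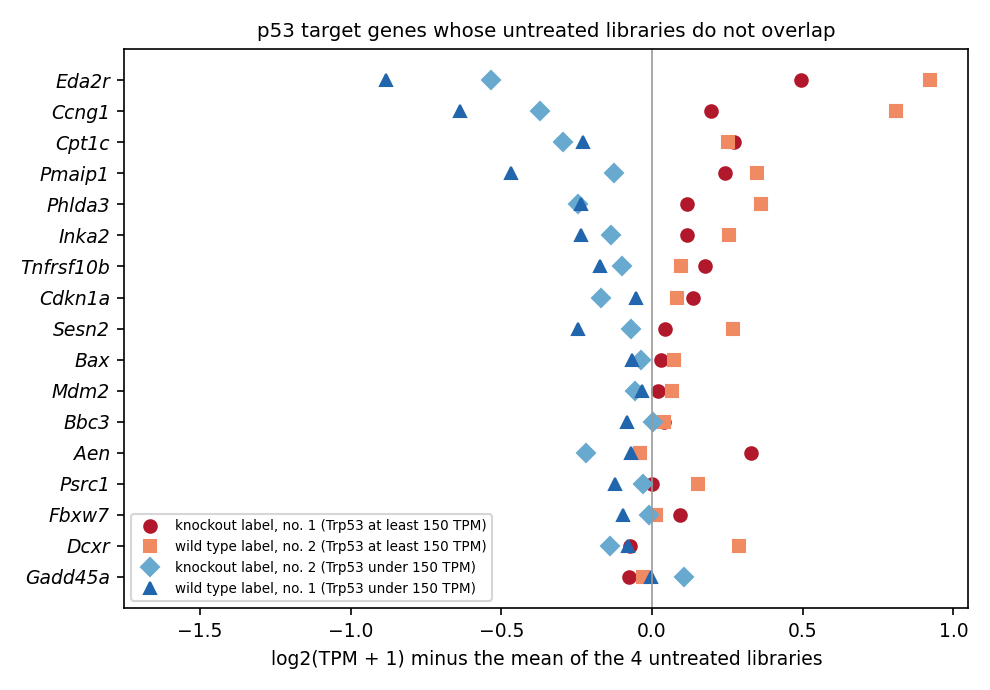
The 17 p53 target genes whose untreated pairs did not overlap, each shown as log2(TPM + 1) minus the mean of its 4 untreated libraries (x axis); circles and squares are the libraries with Trp53 of at least 150 TPM, diamonds and triangles those under 150 TPM. Eda2r and Ccng1 have the widest gaps, and Gadd45a is the single gene in the opposite direction.

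The target genes higher in the untreated pair were set beside the response after irradiation, in libraries that did not form the pairs. The p53 lists were chosen with earlier results of these data known, so they are not independent of the 3 h values. The list counts here and in the next paragraph are therefore a description. At 3 h the libraries labelled knockout, all above 150 TPM of Trp53, were compared with those labelled wild type, all below it. limma called 633 of 15233 genes higher under the knockout label (4.16%) and 344 lower (2.26%), together 6.41%. With the replicate number as a block these counts were 1223 and 1861, and without single libraries the total was 94 to 747. Of 65 p53 targets tested at 3 h, 47 were called higher under the knockout label and none was called lower. The median log2 fold change of the 65 was 2.26, against -0.18 over the genes also measured without treatment. With the block, 50 of the 65 were called higher and 1 lower. The 47 became 24 and 20 without the knockout-labelled 3 h libraries 1 and 2, and 31 without the wild-type-labelled 3 h library 1.

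All 16 targets that were higher in the untreated pair were among those called higher at 3 h. In the untreated libraries, 38 targets called higher at 3 h were measured, of which 16 were higher without overlap and none was lower (42.1%, against 6.48% of all genes). Of the 18 measured targets not called at 3 h, none was higher and 1 was lower. Within numbers, 20 of the 38 were higher in both the library numbered 1 and the library numbered 2 with more Trp53, and 1 was lower in both, against 2753 and 3913 of all 14204 genes. The median differences of these 38 were 0.12 and 0.13 on the log2 scale for numbers 1 and 2. Median-of-ratios scaling left 15 of the 38 higher and none lower, with 13 of the 16 genes shared.

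Values at 3 h follow for targets already described without treatment. Pmaip1 was at 238.34 and 216.77 TPM under the knockout label and at 2.00 and 2.10 TPM under the wild-type label at 3 h, a log2 difference of 6.23 (SE 0.185, limma adjusted p = 0.000135). Eda2r was at 85.74 and 101.38 TPM against 0.33 and 0.46 TPM (6.08, SE 0.338, limma adjusted p = 0.0006). Ccng1 was at 563.44 and 702.78 TPM against 10.63 and 14.04 TPM (5.57, SE 0.284, limma adjusted p = 0.0006). The wild-type-labelled libraries at 3 h thus held these genes at levels close to the lower untreated pair for Eda2r and Ccng1, and close to the higher pair for Pmaip1. In the same libraries Phlda3 (7.15 and 8.38 TPM) and Tnfrsf10b (5.35 and 5.24 TPM) also lay close to the higher pair. Cpt1c (3.9 and 3.57 TPM) lay close to the lower pair, and Bax (95.11 and 90.75 TPM) lay below both, so the level differed between targets. Cdkn1a was at 498.77 and 444.33 TPM against 6.96 and 6.18 TPM (5.96, SE 0.197, limma adjusted p = 0.000135), so a gene with one of the largest differences at 3 h had a small basal gap. Mdm2 was at 293.5 and 305.8 TPM against 33.45 and 33.59 TPM (3.12, SE 0.178, limma adjusted p = 0.0006), where the lower group lay close to the untreated level. Foxo3 was at 41.5 and 53.55 TPM against 12.01 and 14.78 TPM (1.75, SE 0.265, limma adjusted p = 0.0147), and Fbxw7 differed by 1.56 (SE 0.212, limma adjusted p = 0.0103). Both lost the call when any one of the 4 libraries from 3 h was left out.

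Large label differences at 3 h also occurred in targets whose untreated pairs overlapped. Trp53inp1, a nuclear p53 cofactor, stood at 3.15 and 6.51 TPM in the higher untreated pair and at 4.11 and 3.52 TPM in the lower pair (3 h log2 fold change 5.54, limma adjusted p = 0.00105). Zmat3, an RNA-binding target, stood at 13.06 and 16.32 TPM against 13.15 and 10.47 TPM, higher within each number but not across the pair. Btg2, an antiproliferative gene, stood at 5.11 and 10.60 TPM against 10.42 and 7.62 TPM. Fas, a death receptor, and Tap1, a peptide transporter, did not pass the filter without treatment, with at most 1.33 and 0.67 TPM in any of the 4 libraries.

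**Figure D3:**
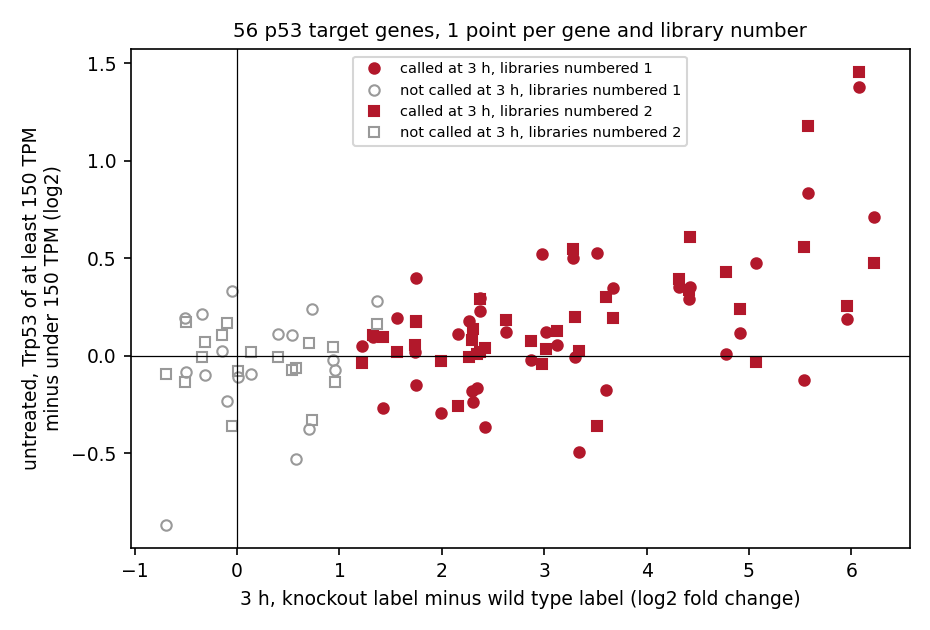
For the 56 p53 targets measured without treatment, the log2 fold change at 3 h of the knockout over the wild-type label (x axis) is plotted against the untreated log2 difference of the library with more Trp53 minus the library with less, within the libraries numbered 1 (circles) and 2 (squares). Filled red points are called at 3 h by limma, and Eda2r and Ccng1 lie highest at the right.

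Genes called at 3 h were then counted in the untreated libraries whatever their list. Of the 438 genes called higher at 3 h and measured without treatment, 67 were higher (15.3%) and 42 lower (9.59%) in the untreated pair with more Trp53, against 6.48% and 8.48% of all genes. Outside the p53 lists 51 of 400 were higher (12.8%) and 42 lower (10.5%). Of the 342 genes called lower at 3 h, 17 were higher (4.97%) and 42 lower (12.3%), so the higher share lay near the 6.48% of all genes.

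Markers of visceral endoderm, the extraembryonic layer of the yolk sac that makes apolipoproteins and serum proteins, were lower in the pair with more Trp53. All 11 listed markers passed the filter and all 11 were lower without overlap (8.48% of all genes were), 5 of them past a gap of 1.5-fold. This list too was chosen with earlier results of these data known, so the count is a description. The median log2 difference was -1.11 between the libraries numbered 1 and -1.35 between those numbered 2. The summed level of the 11 genes was 31.35 and 62.02 TPM in the higher pair against 177.74 and 110.18 TPM in the lower pair. None of the 11 markers was at 0 in any of the 4 libraries, and Apoa4, Cubn and Amn passed the filter through the lower pair alone. Their part in the p53 target differences was not tested. In bulk RNA, fewer cells of a type and less transcript per cell cannot be told apart.

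Apoa1, the main apolipoprotein of HDL, stood at 2.7 and 5.78 TPM in the higher pair and at 26.7 and 20.97 TPM in the lower pair. Apoa2, another HDL apolipoprotein, stood at 3.22 and 4.06 TPM against 11.91 and 12.70 TPM. Ttr, the thyroxine carrier transthyretin, stood at 5.23 and 5.81 TPM against 16.06 and 12.46 TPM. Within each pair the levels of Apoa2 and Ttr were alike, while Apoa1 varied more within the higher pair. Between the pairs each of these genes differed by more than within them. Afp, alpha-fetoprotein, was more variable, at 3.97 and 19.38 TPM against 53.72 and 27.56 TPM. Cubn, the endocytic receptor cubilin, stood at 0.18 and 0.63 TPM against 4.01 and 1.58 TPM. Rbp4 and Apom reached no more than a narrow gap, at 9.34 and 15.49 against 33.51 and 16.08 TPM for Rbp4 and at 1.29 and 2.02 against 6.37 and 2.10 TPM for Apom. Some genes outside the list were named because their lower gaps were among the widest, so being lower was fixed by the choice. They were Apoc2, an apolipoprotein (0.22 and 0.82 against 4.96 and 4.05 TPM), Fgg, a fibrinogen chain (0.36 and 0.50 against 2.67 and 2.03 TPM), and S100g, a calcium-binding protein (0.14 and 1.89 against 8.87 and 6.28 TPM). Apoc2 and Fgg passed the filter through the lower pair alone, so they had to differ.

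**Figure D4:**
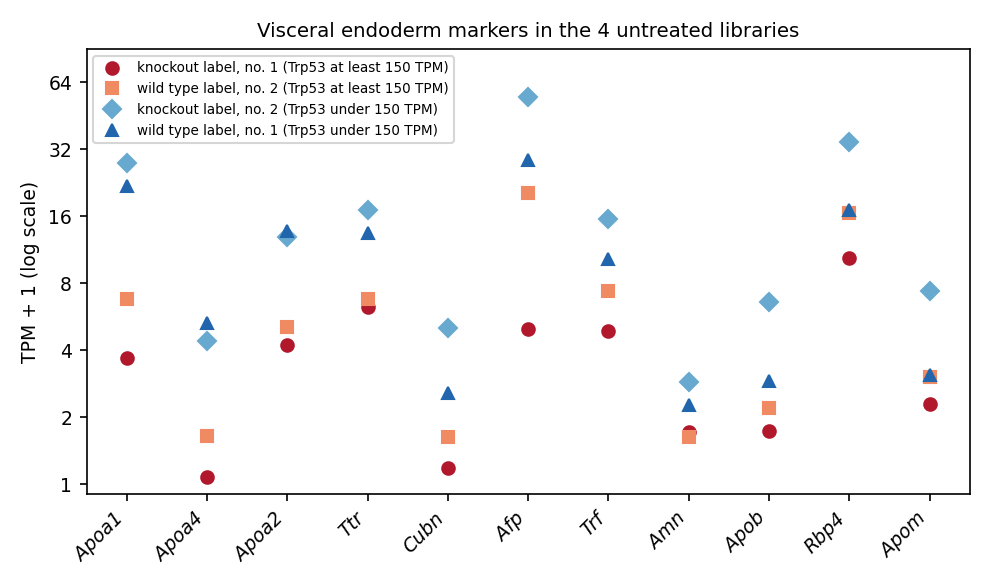
TPM + 1 (log axis) of the 11 visceral endoderm markers in the 4 untreated libraries; circles and squares are the libraries with Trp53 of at least 150 TPM, diamonds and triangles those under 150 TPM. For every marker both libraries of the higher pair lie below both of the lower pair, with Apoa1 widest and Apom and Rbp4 narrowest.

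After irradiation the visceral endoderm markers did not run with low Trp53. At 3 h, where the knockout label held the high Trp53 values, the 11 markers had a median log2 fold change of 1.24 for knockout over wild type, the opposite sign, with none called by limma. Blocking on the replicate number gave 1 called higher. Apoa1 was at 47.41 and 95.19 TPM under the knockout label and at 23.31 and 26.92 TPM under the wild-type label (1.39, SE 1.13, limma adjusted p = 0.549). At 1 h it was at 3.78 and 39.65 TPM against 16.15 and 2.18 TPM. The 2 libraries of each label at 1 h thus lay far apart from one another.

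Of 27 genes of G2 and mitosis, 1 was higher (3.7%) and none lower, and among 25 genes for S-phase entry and DNA replication, 1 was higher and 1 lower (4% each). These shares were below those of all genes (6.48% higher and 8.48% lower). Cdc45, a replicative helicase component, stood at 47.09 and 46.71 TPM in the higher pair and at 50.82 and 49.12 TPM in the lower pair. Of 21 genes of the p53 family and its regulators, Trp53 itself was the only one without overlap (4.76% higher, against 6.48% of all genes). Because Trp53 formed the pairs, it could not overlap. Trp63, a p53 family member, stood at 3.94 and 5.64 TPM against 4.51 and 5.67 TPM. Trp73, the other family member, was below 1 TPM in all 4, at no more than 0.24 TPM.

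Of 33 measured genes that neighbour Trp53 on its chromosome, 4 were higher (12.1%, against 6.48% of all genes) and 2 lower (6.06%, against 8.48%), and none passed a gap of 1.5-fold. Wrap53, which overlaps Trp53 on the opposite strand, stood at 22.85 and 26.48 TPM in the higher pair and at 27.13 and 22.98 TPM in the lower pair. Where Wrap53 and Trp53 overlap, their reads cannot be told apart without strand information, and the strand setting is not given in the sources used here. Sat2, an acetyltransferase gene, stood at 3.6 and 5.74 TPM against 6.55 and 7.45 TPM.

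Neurons and blood vessels gave partial separations. Of 12 neuron markers, 4 were lower (33.3%, against 8.48% of all genes) and none higher in the pair with more Trp53, among them Ina, an intermediate filament gene, at 5.09 and 7.32 TPM against 9.46 and 8.49 TPM, and Elavl3, an RNA-binding protein gene, at 2.12 and 4.44 TPM against 5.01 and 4.92 TPM. The summed neuron markers were 82.67 and 140.58 TPM against 145.59 and 138.27 TPM, so the knockout-labelled library 1 stood apart and the sums overlapped. Of 10 endothelial markers, 4 were higher (40%, against 6.48% of all genes) and none lower, with Tek, an angiopoietin receptor, at 13.87 and 15.96 TPM against 13.05 and 11.91 TPM. Other gaps were narrow on the log2 scale, at 0.0086 for Kdr and 0.0157 for Emcn, and at -0.0215 and -0.0319 for the neuron markers Tubb3 and Stmn2. The summed endothelial markers nearly met, at 214.95 and 204.95 TPM against 204.41 and 186.01 TPM. Of 12 hypoxia and glycolysis genes, 4 were higher (33.3%, against 6.48%) and none lower, with Ndrg1 at 4.64 and 6.05 TPM against 3.45 and 3.62 TPM. Of 13 immediate early genes, 3 were lower (23.1%, against 8.48%) and none higher, with Fos at 1.10 and 1.44 TPM against 1.79 and 2.23 TPM. Of 5 measured decidua markers 2 were higher (40%) and 1 lower (20%), and of 3 trophoblast markers 1 was higher and 1 lower (33.3% each). Prl8a2 and Prl3c1, of the decidua list, were at 0 in all 4 libraries, so the decidua counts do not show that this tissue was present. The part of these lists in the p53 target differences was not tested.

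**Figure D5:**
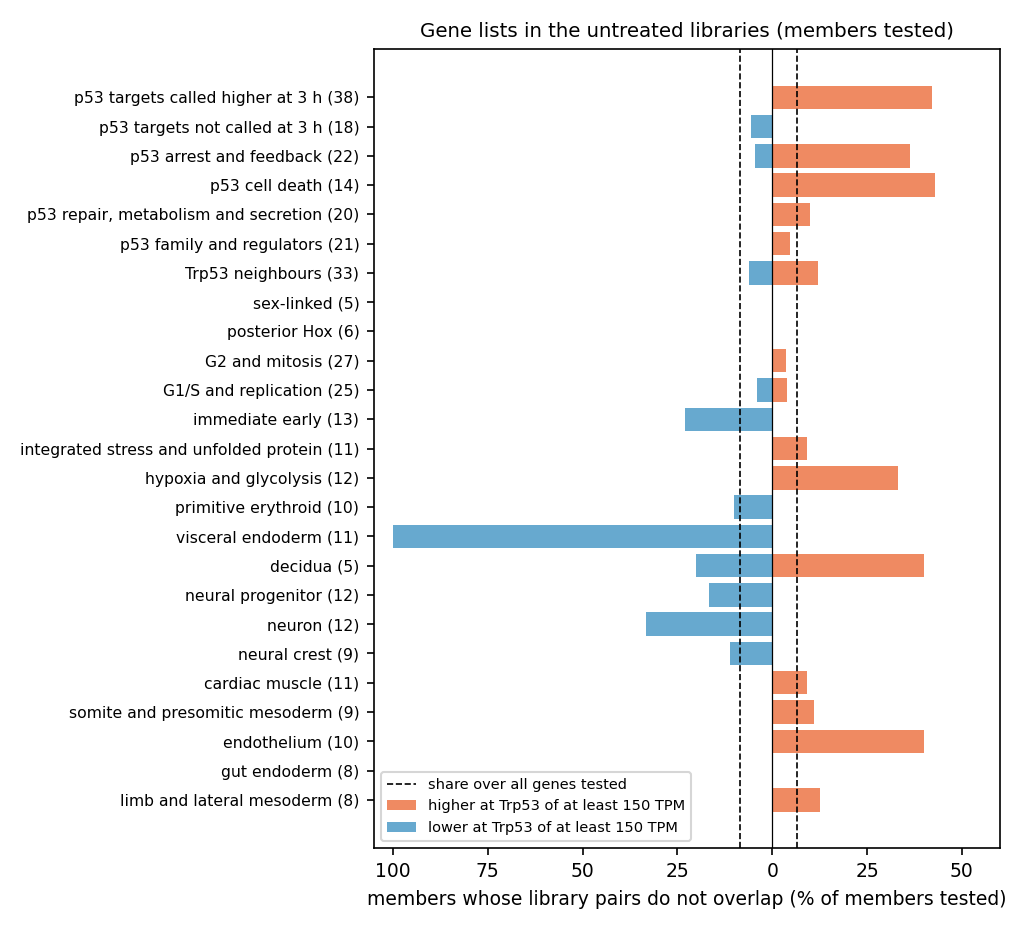
Share of each list's measured members (number in brackets) whose untreated library pairs did not overlap, higher to the right and lower to the left of 0, in percent; dashed lines are the shares over all genes, 6.48% and 8.48%. Visceral endoderm markers reach 100% in the lower direction, and p53 targets called at 3 h reach 42.1% and those of cell death 42.9% in the higher direction, beside 40% for endothelium and decidua and 33.3% for hypoxia and glycolysis.

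Sex and the label were balanced across the pairs. Primitive erythroid markers were low in 1 library of the higher pair, and their sums overlapped between the pairs. Both libraries numbered 2 held Xist, at 52.98 and 51.17 TPM, while both numbered 1 held at most 0.02 TPM and expressed Y-linked Ddx3y at 14.68 and 12.48 TPM. Each pair thus held 1 library with Xist and 1 with Ddx3y. Posterior Hox genes, switched on in sequence as the body axis extends, followed the label: Hoxb9 stood at 10.61 and 12.32 TPM in the libraries labelled knockout and at 53.23 and 41.68 TPM in those labelled wild type, numbers 1 and 2. Primitive erythroid markers summed to 2321.66 TPM in the knockout-labelled library 1 and to between 6629.93 and 7821.08 TPM in the other 3. The library number set apart far more genes than Trp53 did: 47.6% of genes were higher and 19.7% lower in both libraries numbered 2, and 3.67% and 2.09% passed a gap of 1.5-fold (5.76% together). Number and sex coincide in the untreated libraries, so they cannot be told apart here.

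The labelled comparison without treatment, which does not use Trp53, gave few calls. limma, fitted to all 12 libraries, called 3 of 15535 genes lower under the knockout label (0.0193%) and none higher, with 186 genes at an unadjusted p under 0.05. All 3 were Hox genes: Hoxc6 (log2 fold change -1.84, SE 0.167, adjusted p = 0.0368), Hoxb9 (-1.95, SE 0.21, adjusted p = 0.0498) and Hoxc8 (-2.40, SE 0.259, adjusted p = 0.0498). Hoxc8 was not called once the replicate number entered as a block (adjusted p = 0.0527). No p53 target was called, and the median log2 fold change of the 65 tested was -0.03. The count was 0 without any one of 9 of the 12 libraries, 1 without either wild-type-labelled library from 1 h, and 2 without the untreated wild-type-labelled library 1. At 1 h, limma called 3 of 15233 genes higher (0.0197%), all p53 targets (Cdkn1a, Pmaip1 and Sesn2), and none lower. With the replicate block the 1 h count was 11. Leaving out 1 library gave 2 calls without the wild-type-labelled 1 h library 2 and 0 without any of the other 7.

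Among all genes with a usual gene name, the widest gaps in the higher direction included Pagr1a, a subunit of histone methyltransferase complexes, at 7.04 and 11.49 TPM against 3.40 and 1.71 TPM. Mrpl55, a protein of the mitochondrial ribosome, was the most abundant of them after Trp53, at 55.21 and 63.34 TPM against 33.18 and 25.93 TPM. At 1 h it stood at 62.46 and 61.23 TPM under the knockout label and at 24.93 and 37.58 TPM under the wild-type label. At 3 h the labels overlapped, at 43.26 and 46.18 TPM against 24.59 and 44.06 TPM. The difference was not called at 1 h or 3 h. Next to Mrpl55 in the RefSeq order of GRCm38.p6 lies the non-coding 2610507I01Rik, chosen after its values were seen, at 2.28 and 3.01 TPM against 0.07 and 0.00 TPM. Relt, a TNF receptor family gene, stood at 8.32 and 6.45 TPM against 3.61 and 3.84 TPM. Klk8, a serine protease gene, stood at 13.52 and 14.70 TPM against 8.76 and 8.12 TPM. In the lower direction, Aox4, an aldehyde oxidase gene, stood at 0.73 and 0.60 TPM against 2.3 and 2.7 TPM. Aox4 and 2610507I01Rik passed the filter through 1 pair alone. Aox4 was called at 3 h in the opposite direction (1.01, limma adjusted p = 0.0499), and lost that call without any one of 6 of the 8 libraries.

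A set of 4 unnamed gene models was among the genes called at 3 h with the widest untreated gaps. Each differed in the same direction as Trp53, or opposite to it, both without treatment and at 3 h. Another model picked by the same rule, Gm5424, changed direction. It stood at 0.23 and 0.16 TPM in the higher untreated pair and at 1.06 and 1.82 TPM in the lower pair, which alone took it past the filter. At 3 h it was at 4.21 and 6.14 TPM under the knockout label against 0.44 and 0.48 TPM under the wild-type label (2.06, limma adjusted p = 0.0103). Gm42047 stood at 30.32 and 112.85 TPM in the higher untreated pair and at 8.02 and 10.76 TPM in the lower pair. At 3 h it stood at 104.96 and 103.98 TPM under the knockout label and at 8.89 and 8.28 TPM under the wild-type label (3.46, SE 0.56, limma adjusted p = 0.0187). Its untreated level in the wild-type-labelled library 2 was thus as high as at 3 h under the knockout label. Gm47761 stood at 3.84 and 20.74 TPM against 1.07 and 0.73 TPM without treatment, and at 12.28 and 17.87 TPM against 1.74 and 1.78 TPM at 3 h (2.52, limma adjusted p = 0.0458).

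Gm18860 ran the other way. It stood at 0.15 and 0.14 TPM in the higher untreated pair and at 9.27 and 6.07 TPM in the lower pair. It stood at 0.07 and 0.54 TPM under the knockout label and at 8.51 and 4.71 TPM under the wild-type label at 3 h (-2.52, SE 0.306, limma adjusted p = 0.00701). Gm6685 stood at 0.19 and 0.22 TPM against 1.45 and 5.63 TPM without treatment, and at 0.00 and 0.20 TPM against 6.29 and 3.56 TPM at 3 h (-2.40, limma adjusted p = 0.00593). In both genes every library with Trp53 of at least 150 TPM lay below every library under it, at all 3 times. Both were picked as genes called at 3 h with the widest untreated gaps and passed the untreated filter through the lower pair alone, so this pattern supports nothing further. Gm47761, Gm18860 and Gm6685 are pseudogenes in the RefSeq table, and transcript quantification can divide reads between such copies, so their levels are uncertain. All 4 lost the call without either knockout-labelled library from 3 h, and Gm42047 and Gm47761 also without either wild-type-labelled one. In the fit to all 12 libraries none of these 4 models was called at 3 h, at adjusted p between 0.0624 and 0.182.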

How the data were processed

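Polyadenylated RNA of about 500 ng per library was sequenced with paired reads of 75 bp, per the labels' protocols. The authors deposited TPM for 53647 gene IDs in 12 libraries. Columns sum to 999999.1 to 1000000.8, so depth is unknown and no counting error can be given. Per the submitters' processing notes the build was GRCm39, and the tools, given without roles, were R 4.3.3 with DESeq2 1.42.1, RSEM 1.3.3, STAR 2.7.3a and HTSeq 0.12.3. Symbols came from a reference table of gene IDs and names (97.1% of IDs matched), and promoter sequences from RefSeq on GRCm38.p6.

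Untreated libraries were paired by Trp53 TPM at 150 and described without a test. Labelled groups were compared with limma 3.58.1 in R 4.3.3 on log2(TPM + 1), for genes with 1 TPM in at least 2 libraries, two-sided, with Benjamini-Hochberg adjustment and calls at an adjusted p under 0.05. All 12 libraries entered the untreated comparison, and the 8 irradiated ones the 1 h and 3 h comparisons. Whether libraries of a group came from separate litters is not given, so p-values reflect library-to-library spread, which may be technical. The fit was tested on simulated data. Figures used Python 3.11.15 and matplotlib 3.10.9.

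Same-numbered libraries deviated together from their group means in all 15 pairs of groups (correlations across genes 0.327 to 0.796), so the number was also used as a block. The members and gene lists were chosen with earlier results of these data known. Named genes were Trp53, the title genes, list members and genes with the widest gap by a written rule, which leaves out clone-like names among the widest gaps. Further list members, such as Trp53inp1, Btg2, Ercc5, Polk, Fas and Tap1, were named after their values were seen. The 24 arrest, 18 death and 25 repair genes formed the p53 lists. Across the 4 untreated libraries 13724 to 14108 genes reached 1 TPM, ribosomal protein genes held 12.4% to 13.23% of TPM, and no 2 libraries shared more than 0.54% of values. Trophoblast, decidua and white blood cell markers were checked: 3 of 10, 5 of 7 and 0 of 10 passed the filter, and Tpbpa, Prl8a2 and Prl3c1 were at 0 in all 4. The trophoblast genes Prl3d1 (0.19 TPM) and Prl2c2 (0.1 TPM) were above 0 in the knockout-labelled library 1 and at 0 in the other 3.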

Additional observations from a re-analysis of the deposited data

Results flagged for a closer look

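The difference between the labels had opposite directions without treatment and after irradiation, without overlap at either time, in 3 of the genes named. These differences were not tested. Foxo3 was lower under the knockout label without treatment (gap between nearest libraries -0.05 on the log2 scale) and higher at 3 h (1.43). Rimbp2, a synaptic scaffold gene, was higher without treatment (0.49) and lower at 3 h (-0.43). Hoxc6 was lower without treatment (-1.77) and higher by narrow gaps at 1 h (0.01) and at 3 h (0.07).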

How the results depend on the processing

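No direction of a named gene was counted as reversed, but the checks were limited. A pseudocount of 0.1 and a filter of 5 TPM cannot reverse a gap, so only median-of-ratios scaling could. For the label difference at 3 h, a reversal was counted only where the gene was called in either fit. The 73 genes past the 1.5-fold gap became 37 at 2-fold, 2125 at any gap, 153 with a pseudocount of 0.1, 5 with at least 5 TPM in all 4 libraries, and 273 to 619 without 1 of the 4 libraries, where 1 library stands against 2. In alternatives chosen after seeing the data, the 16 p53 targets higher became 10 (of 38 tested) at 5 TPM and 17 to 38 without 1 library. Without the wild-type-labelled library 2, 21 were higher and 21 lower, and without the wild-type-labelled library 1, 17 were higher and 12 lower. The 11 visceral endoderm markers lower became 2 (of 2 tested) at 5 TPM. They were 11 without any 1 library, which could not turn out otherwise, because dropping a library cannot close a gap. Median-of-ratios factors shifted the median of all genes by 0.107 in the knockout-labelled library 1 and by -0.091 to 0.048 in the others, and 8.99% of genes were then higher and 8.1% lower.

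By label, the 3 untreated calls became 1 without the trend and 1 with only the 4 untreated libraries, and 0 to 2 without 1 library. The replicate block gave 2. The 3 calls at 1 h became 6 with size factors, 6 with all 12 libraries, 11 with the replicate block, and 0 to 2 without 1 library. The 977 calls at 3 h became 1603 with all 12 libraries (815 higher), 3084 with the replicate block (1223 higher) and 94 to 747 without 1 library, with 843 of 1139 higher with size factors against 633 of 977. The 47 p53 targets called at 3 h became 20 to 45 without 1 library. Ccng1, Cdkn1a, Eda2r, Pmaip1 and Mdm2 kept their 3 h calls without any single library, whereas Foxo3 and Fbxw7 lost theirs without any 3 h library. The replicate block added 3 h calls for 12 named genes, among them Gadd45a, Cdc45, Elavl3, Tek and Wrap53, and removed none at 3 h. Without treatment it removed Hoxc8. Depth is unknown, and values under 1 TPM limit Eda2r, Apoa4 and the unnamed models most.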
